A study of Mus musculus with 12 samples.

Results

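Fibroblast growth factor (FGF) signalling was followed through 10 genes of embryonic mouse brain, namely 4 ligand genes (Fgf8, Fgf17, Fgf18 and Fgf15), 3 receptor genes (Fgfr1, Fgfr2 and Fgfr3), the Sprouty feedback genes Spry1 and Spry2, and Fgfbp3, which encodes an FGF-binding protein. They were found by symbol among the probe sets that the platform table ties to a single gene. That gave 17 probe sets of 45037, and all 10 genes among the 17097 genes measured. Each gene was represented by its brightest probe set over all arrays, and the others are described separately.

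The study held 12 arrays in 4 groups of 3, all on a mixed genetic background. YAP overexpression embryos carried TetO-YAP1, a doxycycline-dependent YAP1-S127A allele, together with Nes-rtTA, whose Nestin promoter drives the transactivator in neural progenitors. YAP control embryos carried Nes-rtTA alone. The tissue was forebrain with midbrain at E11.5, and the dams of this experiment ate food with 200 mg/kg doxycycline from E7.5. Nf2 knockout embryos were Nf2F/F;Emx1-Cre and Nf2 control embryos Nf2F/+;Emx1-Cre, with dorsal telencephalon taken at E13.5. These controls carry the same Cre, so they too lack 1 copy of Nf2 wherever Emx1-Cre acted, and cells outside the Emx1 lineage keep Nf2 in both groups. YAP is the transcriptional co-activator that the Hippo pathway restrains, and Nf2 encodes an upstream activator of that pathway. The labels number the arrays of a group without saying that they came from separate embryos, so each p-value reflects variation among arrays that may be purely technical.

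FGFs are secreted proteins that bind receptor tyrosine kinases at the cell surface, with heparan sulfate as a cofactor, and signal mainly through RAS and ERK. In the early brain, Fgf8, Fgf17 and Fgf18 are made at signalling centres such as the rostral midline of the forebrain and the isthmus between midbrain and hindbrain, and FGF receptors in neural progenitors respond. Sprouty proteins are induced by the pathway and dampen it. FGF-binding proteins are secreted carriers that take up FGFs held in the matrix and release them to receptors.

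The values were log2 intensities, and the medians of the arrays were 5.03 to 5.1 for YAP but 4.3 to 4.42 for Nf2, so levels are compared only with the controls of the same experiment and only within a probe set. The words rose, fell and called are kept for genes with an adjusted p under 0.05 in limma's fit of 4 group means to all 12 arrays, with Benjamini-Hochberg adjustment over the 17097 genes. Every standard error (SE) of a log2 change comes from that fit, and an SD describes the 3 arrays of a group. The YAP targets Ccn2 and Ccn1 rose in both experiments, Ccn2 by 2.50 and 2.03 on the log2 scale (adjusted p = 7.1e-05 and 0.00165). The manipulated genes themselves were not called in their own experiment. Yap1 was 0.27 higher with YAP overexpression (adjusted p = 0.0551), and Nf2 differed by -0.38 in the knockout (adjusted p = 0.246). Whether these probe sets read the transgene or the deleted part is not given in the sources used here.

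Fgfbp3 rose in both experiments, 2.47-fold with YAP overexpression and 2.21-fold with Nf2 knockout. The Nf2 call came from the fit without pairs and was lost with replicate number as a block (adjusted p = 0.0769). Fgf18 rose 1.73-fold with YAP overexpression. None of the other 8 genes was called in either experiment. Thus 2 of the 10 genes were called with YAP overexpression, both higher, where 6.31% of all genes were called and 2.67% were called higher. With Nf2 knockout 1 of 10 was called, also higher, where 0.252% of all genes were called and 0.205% were called higher. The genes called higher in both experiments made up 0.152% of all genes, 26 in number, and Fgfbp3 was 1 of them. The median log2 change over the 10 genes was 0.05 with YAP overexpression and -0.03 with Nf2 knockout, beside -0.01 and 0.00 over all genes, and without Fgfbp3 the medians were 0.02 and -0.04.

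Fgfbp3, the secreted FGF carrier, read 10.11, 10.46 and 9.62 in the YAP overexpression arrays, against 8.93, 8.57 and 8.77 in the YAP control arrays. The lowest overexpression array lay above the highest control array. The log2 change was 1.31 (SE 0.17, 95% interval 0.95 to 1.67, adjusted p = 0.000837). In the Nf2 knockout arrays it read 9.57, 9.61 and 9.70, against 8.55, 8.50 and 8.39 in the Nf2 control arrays. Here too the groups were apart, with an SD of 0.07 among knockout arrays and 0.08 among control arrays. The log2 change was 1.15 (SE 0.17, 95% interval 0.79 to 1.51, adjusted p = 0.0114). By size of increase, Fgfbp3 stood at rank 25 of all genes with YAP overexpression and at rank 8 with Nf2 knockout. The 2 changes differed by 0.16, the YAP change minus the Nf2 change (SE 0.23, 95% interval -0.35 to 0.67, adjusted p = 0.878), so a difference of the changes within that interval was not detectable with these arrays.

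The increase with YAP overexpression was called in all 10 alternative processing settings and in all 12 fits with an array left out, where its log2 change ran from 1.11 to 1.53. The Nf2 increase kept its size, 1.1 to 1.18 with an array left out, but not always its call. With replicate number as a block the adjusted p was 0.0769. It was 0.0592 without knockout array 2, 0.0593 without knockout array 3, 0.0547 without control array 2 and 0.0666 without control array 3. Taken by equal array number, Fgfbp3 was higher by 1.18, 1.89 and 0.85 in the YAP experiment and by 1.02, 1.11 and 1.31 in the Nf2 experiment.

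**Figure D1:**
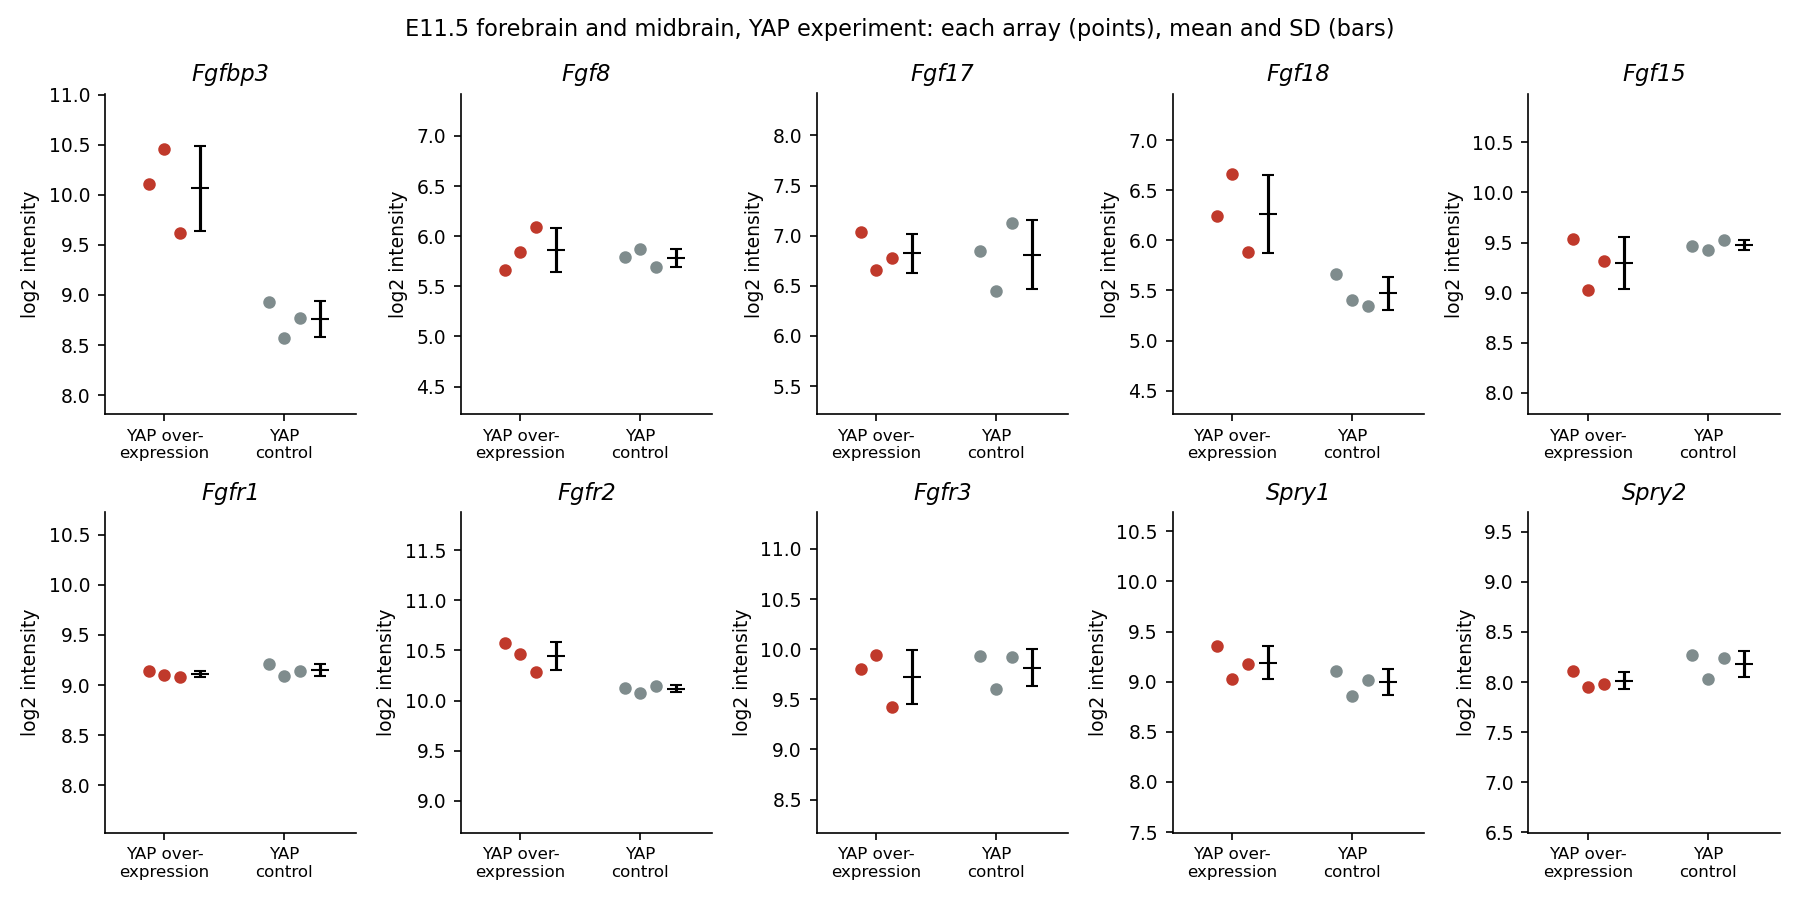
Log2 intensity of each of the 10 genes on the 6 arrays of the YAP experiment, E11.5 forebrain and midbrain, with YAP overexpression left of YAP control in each panel. Points are arrays, bars are the mean and SD of 3, and every panel spans an equal range. The groups are apart for Fgfbp3, Fgf18 and Fgfr2 and overlap for the other 7 genes.

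The bases before the annotated start of Fgfbp3, Fgf18 and Spry1 are given here, the first 2 because these genes rose and the third because its window holds the core motif of TEAD, the DNA-binding partner of YAP. They come from the RefSeq promoter table of build GRCm38.p6, which held 7 windows for 6 of the 10 genes. Each run covers 250 bases up to the start of the gene, read 5′ to 3′ on the strand of the gene. Fgfbp3 lies at chr19:36919600-36919849 on the minus strand, Fgf18 at chr11:33147401-33147650 on the minus strand, and Spry1 at chr3:37639697-37639946 on the plus strand. Capitals mark GGAATG, the core that TEAD factors bind, searched on both strands.
Fgfbp3: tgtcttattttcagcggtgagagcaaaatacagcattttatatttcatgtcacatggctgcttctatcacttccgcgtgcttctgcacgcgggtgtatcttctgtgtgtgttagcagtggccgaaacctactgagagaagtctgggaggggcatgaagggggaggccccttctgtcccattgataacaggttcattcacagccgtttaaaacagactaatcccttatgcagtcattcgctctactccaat
Fgf18: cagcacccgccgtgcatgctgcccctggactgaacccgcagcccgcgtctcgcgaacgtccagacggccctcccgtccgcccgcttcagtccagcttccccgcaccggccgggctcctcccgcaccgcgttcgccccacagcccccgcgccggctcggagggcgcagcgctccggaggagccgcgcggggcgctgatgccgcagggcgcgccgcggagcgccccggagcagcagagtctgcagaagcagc
Spry1: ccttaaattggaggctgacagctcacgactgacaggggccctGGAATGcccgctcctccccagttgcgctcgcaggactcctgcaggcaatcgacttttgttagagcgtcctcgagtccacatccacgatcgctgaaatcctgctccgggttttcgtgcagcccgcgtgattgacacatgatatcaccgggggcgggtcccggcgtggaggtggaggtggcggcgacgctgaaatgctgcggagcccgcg

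The core was found once among the 7 windows, in Spry1 at 208 bases before the start, and 12.6% of the table's 32851 windows hold it. The AP-1 motif TGANTCA, also searched on both strands, was in none of the 7 windows and in 6.75% of all windows. The Fgfbp3 window is 47.2% G or C and the Fgf18 window 77.2%, where the median of all windows is 52.4%. A match is a description of letters in the window, and the absence of one says only that the letters are not in these 250 bases.

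Among the ligands, Fgf18 was the one whose groups did not overlap. It read 6.24, 6.66 and 5.88 with YAP overexpression, against 5.66, 5.40 and 5.35 in the YAP controls. The gap between the nearest arrays was small, since the lowest overexpression array read 5.88 and the highest control array 5.66. That is a log2 change of 0.79 (SE 0.16, 95% interval 0.43 to 1.15, adjusted p = 0.0144). The call was lost when only the 6 arrays of the experiment entered the fit (adjusted p = 0.0799) and without YAP control array 3 (adjusted p = 0.0637).

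In the Nf2 experiment Fgf18 read 4.05, 4.36 and 4.07 in the knockout and 4.14, 4.07 and 4.18 in the controls, below the median of the arrays. The groups overlapped, with a log2 change of 0.03 (95% interval -0.33 to 0.39, adjusted p = 0.993). The difference between the Fgf18 changes, YAP minus Nf2, was 0.76 (SE 0.23, 95% interval 0.26 to 1.26, unadjusted p = 0.00638) and was not called after adjustment (adjusted p = 0.259), in a test that called 0.281% of all genes. An effect of YAP overexpression on Fgf18 that is absent from the Nf2 knockout is therefore not shown by these arrays. None of the 10 genes was called in that test, and 2 of them, Fgf18 and Spry1, had an unadjusted p under 0.05, as did 10.1% of all genes.

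Fgf8, the ligand most studied as an organizer signal of the rostral forebrain and the isthmus, read 5.66, 5.84 and 6.09 with YAP overexpression and 5.79, 5.87 and 5.69 in YAP controls. The arrays of the groups interleaved (log2 change 0.08, 95% interval -0.31 to 0.47, adjusted p = 0.868). In dorsal telencephalon it read 3.71, 3.26 and 3.61 in the knockout and 3.27, 3.81 and 4.04 in the Nf2 controls (log2 change -0.18, 95% interval -0.57 to 0.21, adjusted p = 0.96). Those readings stood between the percentiles 24.1 and 39.1 of the probe sets on the knockout arrays and between 24.7 and 45.8 on the control arrays, and no detection calls were used here, so whether they lie above background is not known.

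Fgf17, a close relative of Fgf8 made in overlapping places, read 7.04, 6.66 and 6.78 with YAP overexpression and 6.85, 6.45 and 7.13 in the YAP controls (log2 change 0.02, 95% interval -0.49 to 0.52). In the Nf2 experiment it read 5.44, 5.44 and 5.0 in the knockout and 4.77, 5.71 and 5.48 in the controls (log2 change -0.03, 95% interval -0.53 to 0.48). The arrays of the groups overlapped in both experiments, and among the ligands the wide intervals of Fgf17 leave changes of those sizes undetectable here.

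Fgf15, a ligand of the developing midbrain and diencephalon, read 9.54, 9.03 and 9.32 with YAP overexpression and 9.47, 9.43 and 9.53 in YAP controls. The overexpression arrays lay on both sides of the controls (log2 change -0.18, SE 0.33, adjusted p = 0.835). That SE pools the spread of all 4 groups. Their SDs were 0.26 with YAP overexpression, 0.05 in YAP controls, 0.25 with Nf2 knockout and 0.92 in Nf2 controls. In the Nf2 experiment Fgf15 read 4.12, 4.15 and 3.70 in the knockout and 3.95, 5.62 and 4.12 in the controls. All of these but control array 2, which alone stood high, lay below the median of their array. The log2 change of -0.57 (95% interval -1.30 to 0.15, adjusted p = 0.897) rests on that array and was -0.045 without it. The mean of 5 ventral telencephalon markers ran from 3.79 to 4.02 in the knockout and from 3.85 to 4.53 in the Nf2 controls, and its highest value, 4.53, was on that same control array. Its Dlx1, a homeobox gene of ventral telencephalon, read 6.28 beside 4.25 and 5.53 in the other Nf2 controls. The part of these markers in the Fgf15 value was not tested. In whole tissue, fewer cells of a type and less RNA per cell cannot be told apart.

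**Figure D2:**
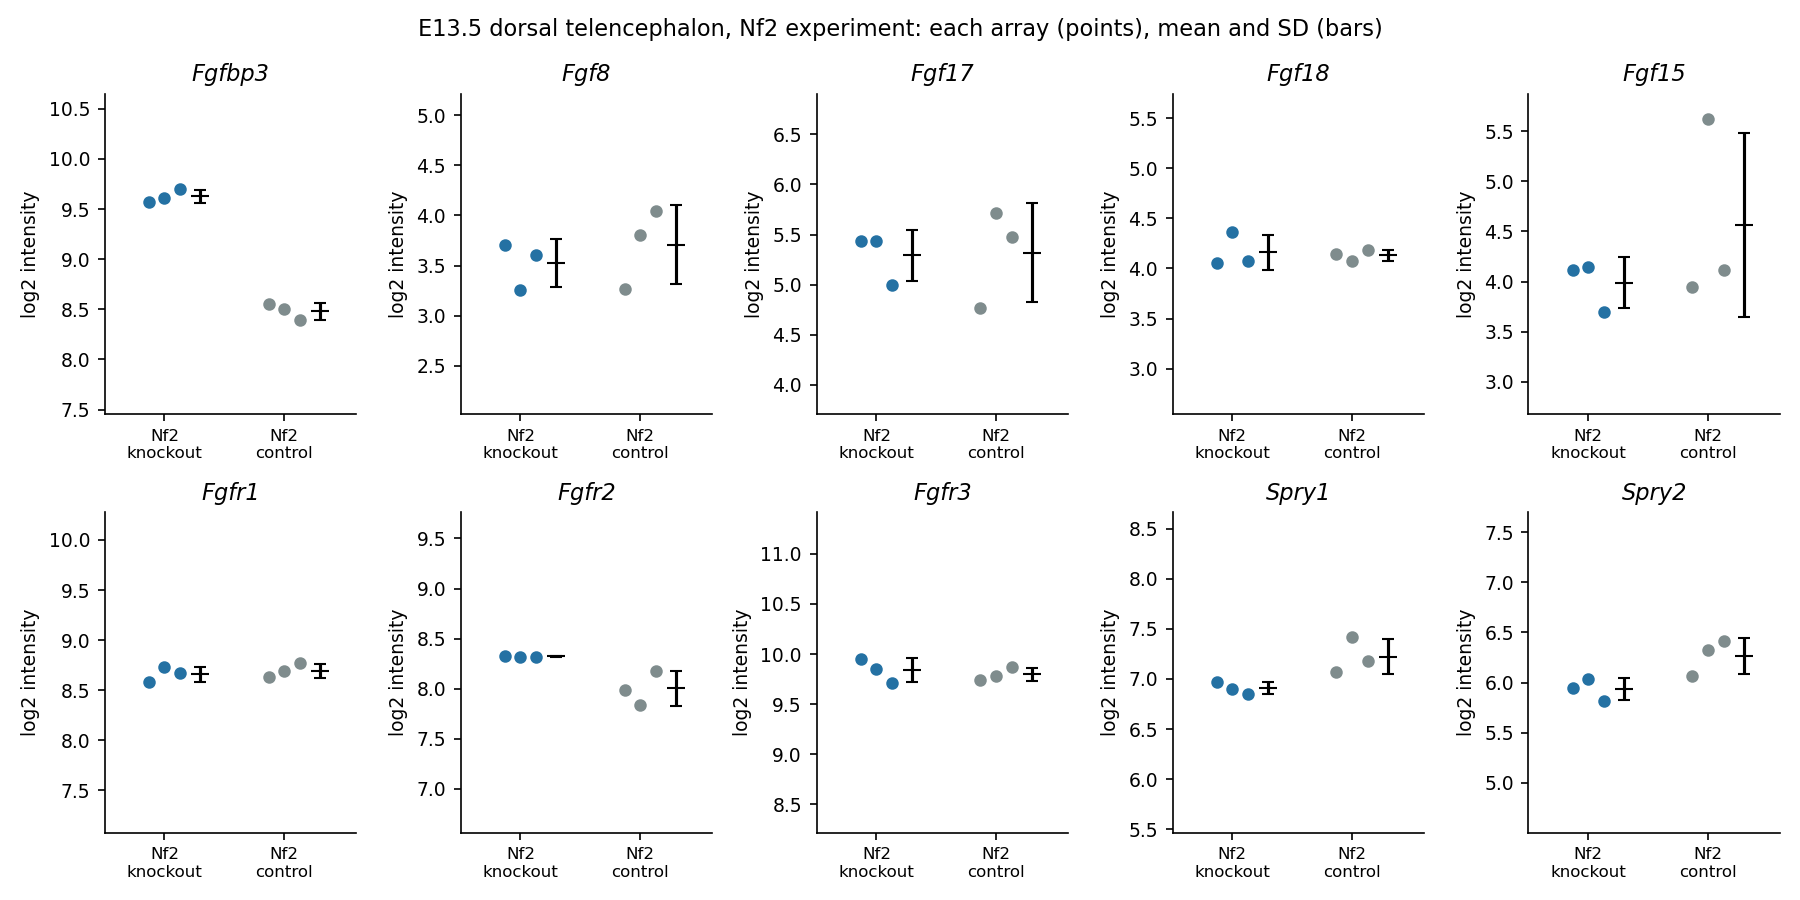
Log2 intensity of each of the 10 genes on the 6 arrays of the Nf2 experiment, E13.5 dorsal telencephalon, with Nf2 knockout left of Nf2 control. Points are arrays, bars are the mean and SD of 3, and every panel spans an equal range. The lowest knockout array of Fgfbp3 reads 9.57 and its highest control array 8.55, Fgfr2 is higher and Spry1 and Spry2 are lower without overlap, and the high control array of Fgf15 stands alone.

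Of the receptor genes, Fgfr2 was the one that moved beyond the spread of its arrays, and it did so by nearly equal amounts in both experiments without being called. Fgfr2 encodes a receptor made by neural progenitors of the ventricular zone. It read 10.57, 10.47 and 10.29 with YAP overexpression, against 10.13, 10.08 and 10.15 in YAP controls, with no overlap. The log2 change was 0.32 (SE 0.09, 95% interval 0.12 to 0.53, unadjusted p = 0.00462, adjusted p = 0.0635). In the Nf2 knockout it read 8.33, 8.32 and 8.32, against 7.99, 7.84 and 8.18 in the controls, again with no overlap. The log2 change was 0.32 (SE 0.09, 95% interval 0.12 to 0.52, unadjusted p = 0.00494, adjusted p = 0.406).

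The YAP value of Fgfr2 sat close to the threshold. It was called when the median of each array was subtracted (adjusted p = 0.0469), when the dimmest genes were left out (adjusted p = 0.0499) and with an intensity trend and robust prior (adjusted p = 0.0213). It was also called without YAP overexpression array 3 (adjusted p = 0.0409) and without Nf2 control array 3 (adjusted p = 0.0447). The Nf2 value was called in none of these settings. With YAP overexpression, Fgfr2 was thus called in 3 of 10 processing settings and 2 of 12 fits with an array left out. Over the processing settings its log2 change ran from 0.17 to 0.36, with adjusted p up to 0.465. With an array left out the adjusted p reached 0.188. The difference of the Fgfr2 changes was 0.00 (95% interval -0.28 to 0.29).

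Fgfr1, the receptor that early telencephalon depends on for its rostral parts, read 9.14, 9.10 and 9.08 with YAP overexpression and 9.21, 9.09 and 9.14 in YAP controls. Its log2 change was -0.04 with a narrow 95% interval of -0.19 to 0.11. In the Nf2 experiment it read 8.58, 8.73 and 8.67 in the knockout and 8.63, 8.69 and 8.77 in the controls, with a log2 change of -0.04 and the interval again -0.19 to 0.11. Fgfr3, a receptor graded across the cortical progenitor zone, read 9.80, 9.94 and 9.42 with YAP overexpression and 9.93, 9.60 and 9.92 in YAP controls (log2 change -0.10, 95% interval -0.38 to 0.19). Its Nf2 readings were 9.95, 9.85 and 9.71 in the knockout and 9.74, 9.78 and 9.87 in the controls (log2 change 0.04, 95% interval -0.24 to 0.32). The groups overlapped for both receptors in both experiments.

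The Sprouty genes encode intracellular inhibitors that FGF signalling itself switches on. Spry1 read 9.36, 9.03 and 9.18 with YAP overexpression and 9.11, 8.86 and 9.02 in YAP controls, and the groups overlapped (log2 change 0.19, 95% interval -0.04 to 0.43, adjusted p = 0.373). In the Nf2 knockout Spry1 read 6.97, 6.90 and 6.85, against 7.07, 7.42 and 7.18 in the Nf2 controls. All 3 knockout arrays lay below all 3 controls, yet the log2 change of -0.32 (SE 0.11, 95% interval -0.55 to -0.08, unadjusted p = 0.013) was not called (adjusted p = 0.62). The YAP minus Nf2 difference of Spry1 was 0.51 (SE 0.15, unadjusted p = 0.00613, adjusted p = 0.256).

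Spry2 read 8.11, 7.95 and 7.98 with YAP overexpression and 8.27, 8.03 and 8.24 in YAP controls, with overlap (log2 change -0.17, 95% interval -0.39 to 0.06, adjusted p = 0.423). In the Nf2 knockout Spry2 read 5.95, 6.04 and 5.82, against 6.07, 6.32 and 6.41 in the Nf2 controls. The knockout arrays again lay below the controls, though the nearest arrays read 6.04 and 6.07. Its log2 change of -0.33 (SE 0.10, 95% interval -0.55 to -0.11, unadjusted p = 0.00748) was not called (adjusted p = 0.495).

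**Figure D3:**
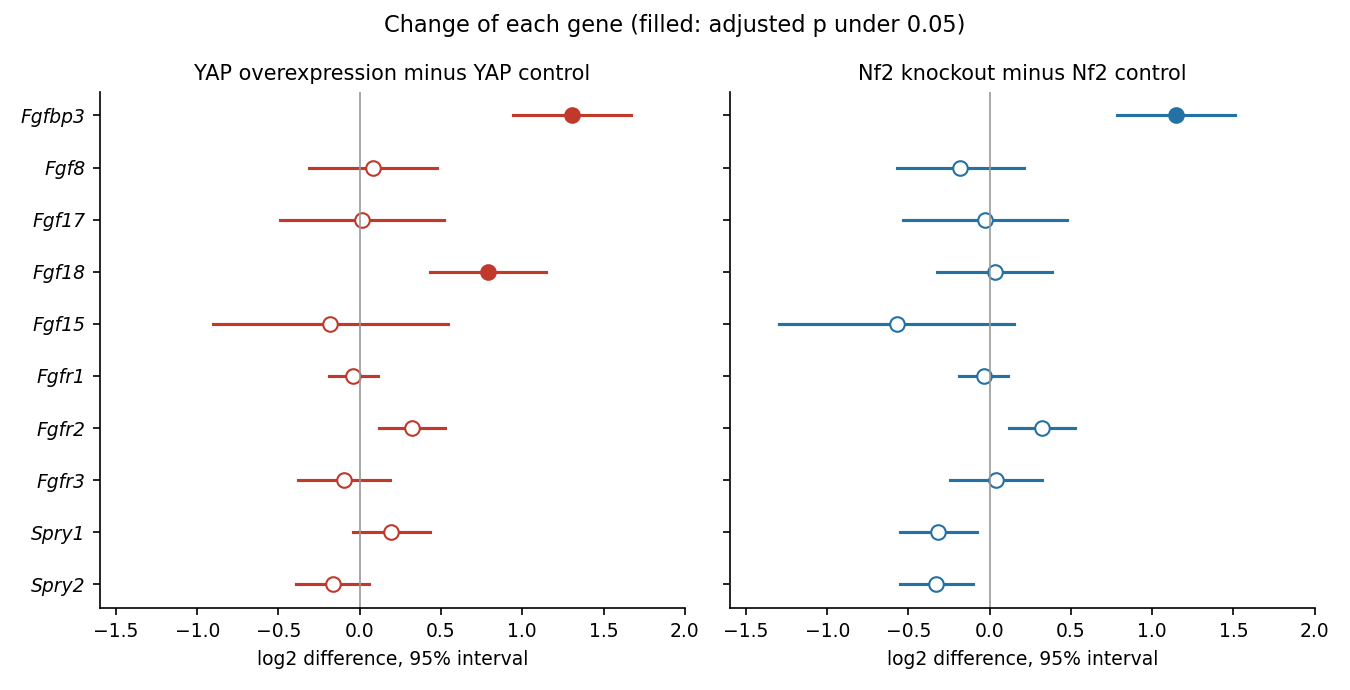
Log2 difference from control for the 10 genes with 95% intervals, YAP overexpression minus YAP control and Nf2 knockout minus Nf2 control. Filled points were called at an adjusted p under 0.05: Fgfbp3 in both experiments and Fgf18 with YAP overexpression.

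Fgfbp3 was set against the 9 signalling genes by their intervals. With YAP overexpression the lower end of its 95% interval, 0.95, lay above the upper end for 8 of the 9, while the interval of Fgf18 reached 1.15. The highest of those 8 was 0.54 for Fgf15, whose interval also takes in the wide spread of its Nf2 control arrays. In the Nf2 experiment the lower end for Fgfbp3, 0.79, lay above the upper ends of all 9, of which Fgfr2 reached 0.52. Arrays of the groups did not overlap for 3 of the 10 genes with YAP overexpression, where 21.3% of all genes did not overlap, and for 4 of 10 with Nf2 knockout, where 12.7% did not. Counting the 9 signalling genes alone, 2 had an unadjusted p under 0.05 with YAP overexpression (Fgf18 and Fgfr2, both higher) and 3 with Nf2 knockout (Fgfr2 higher, Spry1 and Spry2 lower). Of all genes, 19.6% had such a p with YAP overexpression and 6.24% with Nf2 knockout.

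The 10 genes had 7 further probe sets, and none of these was called when every probe set was fitted, a fit that called 3.78% of all probe sets with YAP overexpression and 0.133% with Nf2 knockout. In that fit Fgf18 (adjusted p = 0.0179) and Fgfbp3 (adjusted p = 0.000973 with YAP overexpression and 0.0178 with Nf2 knockout) were called. A second Fgfr2 probe set read 8.34, 8.13 and 8.34 with YAP overexpression, against 7.94, 8.08 and 8.02 in YAP controls, without overlap, as for the main one. Its log2 change there was 0.26 (adjusted p = 0.528). It read 6.38, 6.47 and 6.63 in the Nf2 knockout and 5.74, 6.15 and 6.62 in the Nf2 controls, with overlap. The third was dim and averaged 4.57 with YAP overexpression and 4.63 in YAP controls.

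The other Spry2 probe set averaged 3.86 in both Nf2 groups, so the lower Spry2 reading in the Nf2 knockout was seen in 1 of its 2 probe sets. That other probe set was dim, at 3.69 to 4.05 on the Nf2 experiment arrays and below their medians. A reading that low cannot show that Spry2 did not change. The second Fgfr3 probe set read 5.18, 5.91 and 5.26 with YAP overexpression and 5.91, 5.50 and 6.19 in YAP controls, with overlap, and the second Fgf17 probe set overlapped as well. All 3 probe sets of Fgfr1 overlapped in both experiments.

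**Figure D4:**
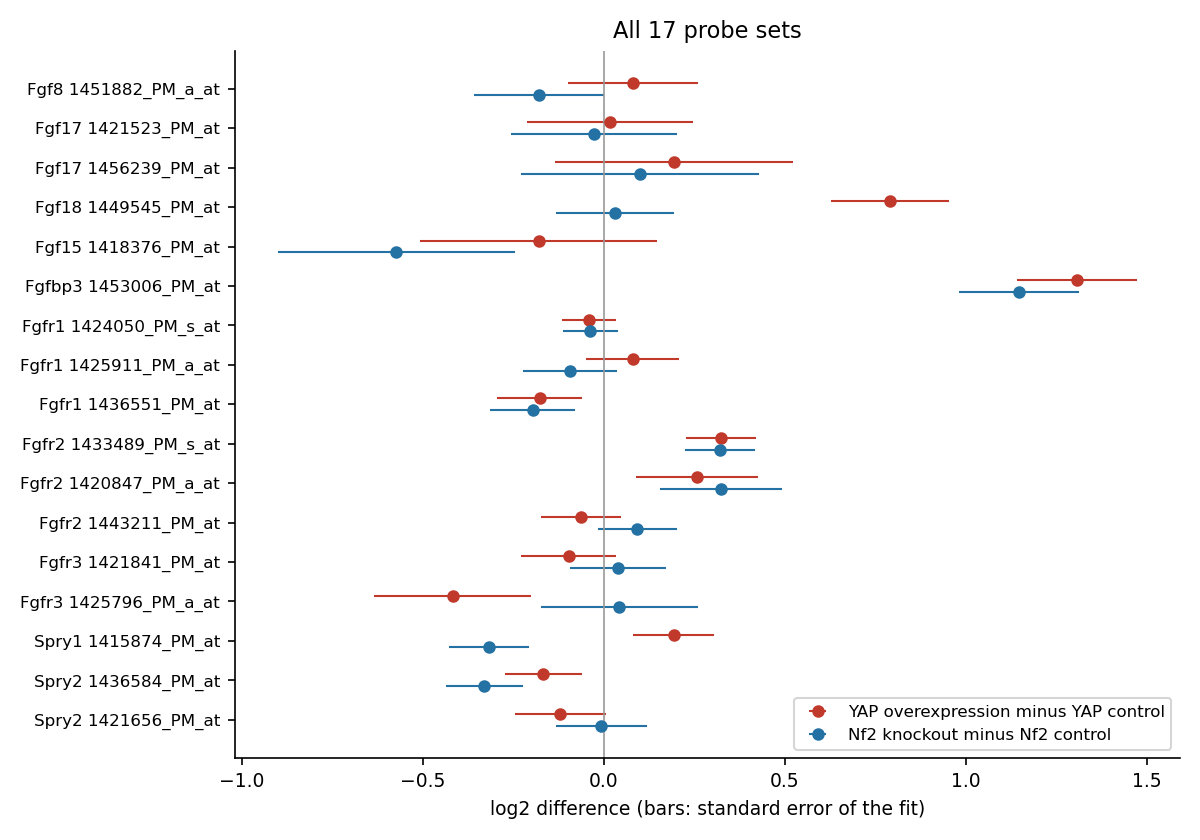
Log2 difference from control for all 17 probe sets of the 10 genes, with SE bars, in the YAP and Nf2 experiments. The Fgfbp3 probe set is the furthest right in both, and 2 of the 3 Fgfr2 probe sets lie to the right of 0 in both.

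Beyond the 10 genes, the other secreted FGFs, from Fgf1 and Fgf2 to Fgf23, showed no call. Of 14 measured, 0 were called in either experiment with limma. For YAP overexpression and Nf2 knockout the median log2 changes were 0.01 and -0.04. At an unadjusted p under 0.05 were 19.6% and 6.24% of all genes, and 3 and 0 of these 14. Their array means over the list were 4.33 to 4.46 in the YAP experiment and 3.21 to 3.36 in the Nf2 experiment. The first quartiles of those arrays were 4.33 to 4.36 and 3.26 to 3.29. With readings that low, a missing call cannot show that a gene did not change. The 4 FGF homologous factors, which stay inside the cell, and 12 further receptors, co-receptors and adaptors also gave 0 calls by limma, with 0 and 2 genes at an unadjusted p under 0.05 for YAP overexpression and 0 and 0 for Nf2 knockout. Shc1, an adaptor at activated receptors, was 0.41 higher with YAP overexpression without passing the test (adjusted p = 0.31), and the carrier gene Fgfbp1, a relative of Fgfbp3, was within 0.04 of control there and 0.19 higher in the Nf2 knockout (adjusted p = 0.91). Of 7 RAS and ERK core genes measured 0 were called, with 1 at an unadjusted p under 0.05 for YAP overexpression.

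With YAP overexpression 622 of all 17097 genes were called lower and 456 higher. Of 14 genes listed as feedback genes or ERK targets, not all of them inhibitors, 3 fell with YAP overexpression and 11 were not called, with a median of 0.00. The 3 were Etv1, an ETS factor gene that FGF signalling induces, and the membrane protein genes Flrt1 and Flrt3, with log2 changes of -0.67 (SE 0.17, adjusted p = 0.0351), -0.61 (adjusted p = 0.0498) and -0.33 (adjusted p = 0.0342). All 3 calls were lost without YAP overexpression array 1 or 3 and without YAP control array 1 or 3 (adjusted p from 0.0555 to 0.167). Those of Etv1 and Flrt1 were also lost without YAP overexpression array 2 or Nf2 control array 2, that of Flrt3 without YAP control array 2, and that of Flrt1 without Nf2 knockout array 3 or Nf2 control array 1 or 3. With array weights all 3 calls were lost (adjusted p from 0.0579 to 0.0656). Flrt1 and Flrt3 were also not called with only the 6 arrays of the experiment (adjusted p = 0.0952 and 0.0961) or with every probe set fitted (0.0652 and 0.0568), and Flrt1 not with medians subtracted (0.0726), with quantile normalization (0.0801) or without _x_at and _s_at probe sets (0.0509). With the mean of all probe sets of a gene, Etv1 differed by -0.39 (adjusted p = 0.105) and Flrt1 by -0.365 (adjusted p = 0.219). The FGF response genes Dusp6, Etv4, Etv5 and Spry4 did not pass. Dusp6, a phosphatase that acts on ERK, read 10.46, 10.05 and 10.39 with YAP overexpression and 10.20, 10.03 and 9.90 in YAP controls (log2 change 0.26, adjusted p = 0.338). Etv4 and Etv5 differed by 0.01 and -0.12, and Spry4 by -0.32 (adjusted p = 0.135). Etv4 read 4.46 to 4.71 and Spry4 4.58 to 5.16 on the YAP experiment arrays, whose medians were 5.03 to 5.1. Low readings limit what a missing call of these genes can show.

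With Nf2 knockout 0 of these 14 were called by limma, and 1 had an unadjusted p under 0.05. That gene was Etv5, an ETS factor gene, which read 7.03, 6.66 and 6.5 in the knockout and 7.32, 7.18 and 7.08 in the controls, with a log2 change of -0.46 (SE 0.15, unadjusted p = 0.00916, adjusted p = 0.546). Dusp6 differed by -0.24 in the knockout (adjusted p = 0.897). Spry4, the third Sprouty gene given here, differed by 0.04 and Il17rd, another membrane inhibitor of the pathway, by 0.07. Spry4 read 3.45 to 3.84 on the Nf2 experiment arrays, whose medians were 4.3 to 4.42. Over the list 4 genes were above 0 and 10 below, with a median of -0.06.

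Of 18 measured genes for heparan sulfate carriers and their enzymes, 3 rose, 1 fell and 14 were not called with YAP overexpression, with a median of 0.06. Of all genes, 6.31% were called there and 2.67% were called higher. Gpc4, a glypican that holds FGFs at the cell surface, read 10.72, 10.50 and 10.07 with YAP overexpression, against 9.42, 9.14 and 9.51 in YAP controls. It rose 2.10-fold (log2 change 1.07, SE 0.14, adjusted p = 0.00105). Sdc4, a syndecan, rose by 0.65 (adjusted p = 0.0125), and Ext1, an enzyme that builds the heparan sulfate chain, by 0.37 (adjusted p = 0.0111). The glypican gene Gpc1 fell by 0.29 (adjusted p = 0.0494). The Sdc4 call was lost without YAP control array 1 (adjusted p = 0.0505), the Ext1 call with only the 6 arrays of the experiment (adjusted p = 0.0521), and the Gpc1 call without any 1 array other than YAP control array 2 and Nf2 knockout array 3 (adjusted p from 0.0504 to 0.169). Gpc1 was also not called with only the 6 arrays (adjusted p = 0.132), with medians subtracted (0.135), with array weights (0.0832), with every probe set fitted (0.0821) or without _x_at and _s_at probe sets (0.0527). With Nf2 knockout limma called 0 of these 18, with 2 at an unadjusted p under 0.05, and Gpc4 was 0.31 higher (adjusted p = 0.79), reading 9.06, 9.02 and 9.18 in the knockout against 8.80, 8.74 and 8.78 in the controls.

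Genes of the rostral forebrain territories that FGFs pattern went both ways with YAP overexpression. Of 10 measured, 2 rose, 3 fell and 5 were not called, with a median of -0.115, where 6.31% of all genes were called. Shh, the ventral midline signal, rose 2.25-fold (log2 change 1.17, SE 0.24, adjusted p = 0.0125), and Sp8, a zinc finger gene linked to Fgf8 expression in the rostral forebrain, rose by 0.47 (adjusted p = 0.0291). The cortical transcription factor genes Lhx2 and Emx2 fell by 0.69 (adjusted p = 0.00054) and 0.68 (adjusted p = 0.00194), and Pax6, named after its values were seen, by 0.34 (adjusted p = 0.013). The Shh call was lost without YAP control array 1 (adjusted p = 0.051) or 3 (adjusted p = 0.0555) and with only the 6 arrays of the experiment (adjusted p = 0.0837). With only those arrays Sp8 was not called either (adjusted p = 0.0587), nor with array weights (adjusted p = 0.0612). The Sp8 call was lost without overexpression array 1 (adjusted p = 0.0613) or 3 (0.107) or without control array 1 (0.082), 2 (0.0889) or 3 (0.0575), while those of Lhx2, Emx2 and Gpc4 were lost in no alternative. In the Nf2 experiment limma called 0 of the 10, with 1 at an unadjusted p under 0.05. That was Sp8, 0.43 higher without passing (adjusted p = 0.323), at 7.14, 7.21 and 7.06 in the knockout and 6.97, 6.62 and 6.53 in the controls.

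Of 8 measured genes of the isthmus, where Fgf8 is also made, Gbx2 fell with YAP overexpression and 7 were not called, beside 6.31% of all genes called. Gbx2, a homeobox gene that sets the hindbrain side of the isthmus, read 4.6, 4.43 and 4.91 with YAP overexpression, against 5.39, 5.27 and 5.32 in YAP controls (log2 change -0.68, SE 0.13, adjusted p = 0.011). En1, En2, Wnt1, Otx2, Pax5, Pax8 and Lmx1b all differed by less than 0.1 with YAP overexpression. Pax5 read 4.24 to 4.44 and Lmx1b 4.17 to 4.47 on the YAP experiment arrays, whose medians were 5.03 to 5.1. En1 was below the median on every array, and Pax8 on all but overexpression array 1 and control array 1. Readings that low cannot show that these genes did not change. En2, Wnt1 and Otx2 read above the medians. Gbx2 was below the median on the overexpression arrays only. With Nf2 knockout limma called 0 of the 8, with 2 at an unadjusted p under 0.05. All of the 8 but Otx2 read below the medians of the Nf2 experiment arrays, 4.3 to 4.42, which limits what these missing calls can show.

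**Figure D5:**
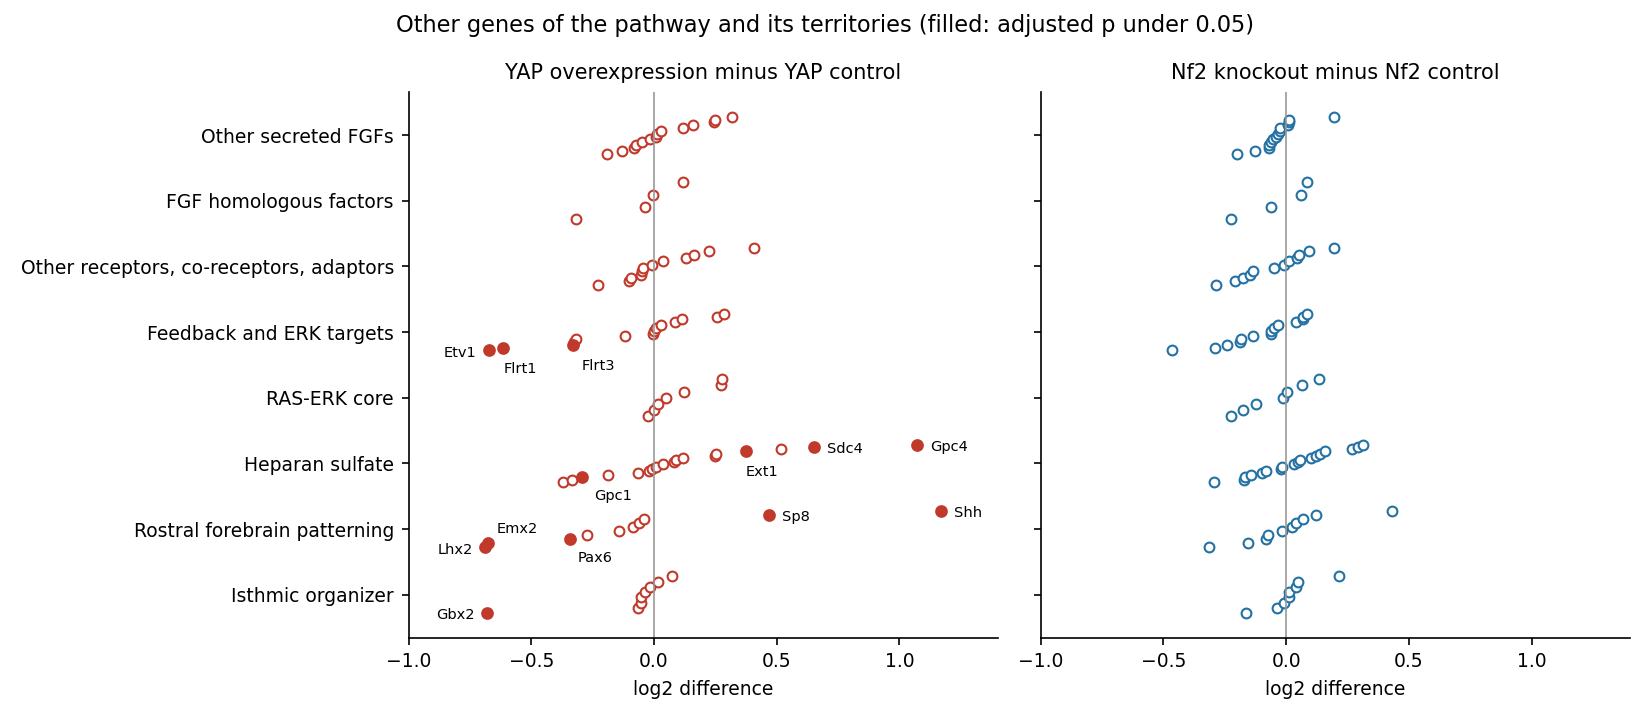
Log2 difference from control of the other genes of the FGF pathway and of the territories it patterns, by list, YAP overexpression minus YAP control left and Nf2 knockout minus Nf2 control right. Filled points with names had an adjusted p under 0.05, and none is filled in the Nf2 panel.

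Cell markers differed between the groups of the YAP experiment, where 6.31% of all genes were called. Of 7 neuron genes 6 fell with YAP overexpression, with array means over the list from 9.49 to 10.03, against 10.27 to 10.54 in YAP controls. The 5 dorsal telencephalon genes averaged 7.55 to 7.66 with YAP overexpression, against 8.13 to 8.50 in YAP controls, and the 5 ventral telencephalon genes 5.87 to 6.33, against 7.07 to 7.5, and in each list 4 fell. The 8 progenitor genes averaged 10.50 to 10.73 with YAP overexpression and 10.56 to 10.69 in YAP controls, with 2 higher and 2 lower. Lhx2 and Emx2 are among the dorsal genes that fell and Pax6 among the lower progenitor genes, so their falls are counted again here. The part of these marker changes in the Fgfbp3, Fgf18 and Gpc4 increases was not tested. Nor was it tested in the other increases or in the falls named above, such as those of Etv1, Flrt1, Flrt3, Gpc1 and Gbx2. Of 6 midbrain, 8 mesenchyme, 5 endothelium, 5 surface ectoderm, 4 erythroid and 5 microglia genes, limma called 0 in either experiment. En1, En2, Otx2 and Lmx1b belong to both the midbrain and the isthmus genes. At an unadjusted p under 0.05 there were 3 mesenchyme and 2 erythroid genes with YAP overexpression, all lower. With Nf2 knockout there were 1 mesenchyme, 2 endothelium and 2 erythroid genes, all lower, and 1 microglia gene, higher. Of all genes, 19.6% had such a p with YAP overexpression and 6.24% with Nf2 knockout.

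With Nf2 knockout 0 of the neuron, progenitor and telencephalon genes were called by limma, where 3 progenitor and 1 ventral telencephalon gene had an unadjusted p under 0.05. Those 3 were Nes, Vim and Hes1, with log2 changes of 0.36, 0.30 and 0.24. The progenitor genes Hes5 and Fabp7 differed by -0.34 and -0.15, with every knockout array below every control array. Array means over the progenitor list overlapped, at 9.64 to 9.76 in the knockout and 9.58 to 9.65 in the controls. All 7 neuron genes were below 0, with array means from 9.26 to 9.46 in the knockout and 9.41 to 9.56 in the controls, and a median log2 change of -0.11. Among the cell marker lists, the array means of 3 did not overlap between the Nf2 groups. Microglia genes averaged 5.62 to 5.76 in the knockout and 5.41 to 5.44 in the controls, with all 5 above 0. Erythroid genes averaged 8.81 to 8.87 in the knockout and 9.12 to 9.42 in the controls, with all 4 below 0. Mesenchyme genes averaged 6.125 to 6.445 in the knockout and 6.4525 to 6.61 in the controls, with 6 of 8 below 0. The part of any of these markers in the Fgfbp3 increase with Nf2 knockout was not tested. En2, a midbrain gene, read 9.20 to 9.62 with YAP overexpression and 9.27 to 9.59 in YAP controls, the tissue labelled forebrain and midbrain. The 5 dorsal telencephalon genes averaged 9.86 to 9.98 in the knockout and 9.97 to 10.02 in the Nf2 controls. On those arrays En2 read 2.97 to 3.06 in the knockout and 2.90 to 3.24 in the controls, below their first quartile.

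Genes whose array values most resembled those of Fgfbp3 over the 12 arrays, after each experiment's mean was subtracted, were Cdk6, Fhod3 and Cldn12, each with a Pearson correlation of 0.976. Cldn12, a claudin gene, rose in both experiments, by 1.30 with YAP overexpression and 0.96 with Nf2 knockout (adjusted p = 3.21e-05 and 0.00165). Cdk6, a G1 cyclin-dependent kinase, rose by 0.87 with YAP overexpression (adjusted p = 0.00116) and differed by 0.59 with Nf2 knockout (adjusted p = 0.094). For Fgf18 the nearest were Slc6a15, Pdxdc1 and Pxdc1, with correlations of 0.955, 0.948 and 0.945. These correlations share the arrays and the group differences of the genes, and they were chosen as the highest of all genes, so they describe likeness and carry no p.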

How the data were processed

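Biotinylated cRNA (3' IVT Express) was measured on 12 arrays. The authors deposited log2 intensities, with RMA, Affymetrix Expression Console 1.1 and Partek 6.5 named, per the submitters' processing notes, without a role for each. The genome build is not given in the sources used here. Array medians differed between the experiments, which were therefore not compared in level. No values were renormalized. Of 45037 probe sets, the platform table listed 29449, of which 28898 had 1 gene symbol and 551 several. Symbols of 28689 were updated through Entrez IDs. The brightest probe set by its mean stood for each of 17097 genes.

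Limma 3.58.1 in R 4.3.3 was fitted with 4 group means (8 residual and 4.096 prior degrees of freedom). Tests were two-sided, with Benjamini-Hochberg adjustment across every gene. The method was tested on simulated data. Signal over background and the number of arrays limit the precision, and depth has no meaning for arrays.

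The genes, the lists and the rules for naming were chosen with earlier results of these data known. Named were the 10 genes with all their probe sets, up to 4 called genes per list and comparison by size of change, and the 3 genes most alike Fgfbp3 and Fgf18. Some list genes were not analysed here.

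Within groups, arrays correlated at 0.994 or more and no pair was identical. Residuals of equally numbered arrays correlated at 0.271, 0.212 and 0.207 in the Nf2 experiment. Its numbers were treated as possible pairs, which the labels do not name. In the YAP experiment residuals of equally numbered arrays correlated at 0.0971, -0.195 and -0.204, and the numbers were not taken as pairs. Unequally numbered arrays there, overexpression array 3 and control array 2, reached 0.304, so values of this size do not establish pairs. The main fit held no block, so its Nf2 calls ignore any such pairs. Alternatives covered the choice of probe set, normalization, the filter on dim genes, the prior, array weights, the arrays fitted, a replicate block and leaving out each array.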

Additional observations from a re-analysis of the deposited data

How the results depend on the processing

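Genes called with YAP overexpression numbered 1078, and 361 with only the 6 arrays of the experiment, 689 with a replicate block and 529 to 1241 with an array left out (688 without YAP overexpression array 1, 678 without array 3, 674 without YAP control array 1 and 529 without array 3). With Nf2 knockout they numbered 43, and 25 with only the 6 arrays, 67 with array weights, 21 with the replicate block, of which 19 were among the 43, and 20 to 50 with an array left out. In the test of the difference they numbered 48, and 30 with every probe set fitted, 129 with an intensity trend and robust prior, 21 with the replicate block and 21 to 161 with an array left out. That test has no value with only the 6 arrays. Of the 10 FGF genes, 2 were called with YAP overexpression, 1 with only the 6 arrays and 1 to 3 with an array left out. With Nf2 knockout 1 was called, 0 with the replicate block (adjusted p = 0.0769 for Fgfbp3) and 0 to 1 with an array left out. The numbers pair the Nf2 arrays by their residuals, and among the 10 genes the block ended no other call. Of the other pathway genes named with YAP overexpression, whose arrays the numbers do not pair, it ended the calls of Etv1 (adjusted p = 0.0996), Flrt1 (0.0771), Flrt3 (0.0546), Sdc4 (0.0551) and Gpc1 (0.1002). The values that changed sign were uncalled in every setting. With YAP overexpression Fgfr1 was 0.08 without _x_at and _s_at probe sets. With Nf2 knockout Fgf17 was 0.0367 with the mean of all probe sets and 0.0021 with array weights. The Fgfr1 difference was 0.0633 with the mean of all probe sets, 0.17 without _x_at and _s_at probe sets, 0.0233 with medians subtracted and 0.0256 with quantile normalization, and the Fgfr2 difference was -0.0733 and -0.0667 in the first 2 of these. With an array left out, YAP changes ran from -0.0333 to 0.18 for Fgf8, -0.16 to 0.18 for Fgf17 and -0.21 to 0.0533 for Fgfr3. Nf2 changes ran from -0.30 to 0.17 for Fgf17, -0.07 to 0.085 for Fgf18, -0.0717 to 0.0033 for Fgfr1 and -0.0167 to 0.10 for Fgfr3. Differences ran from -0.15 to 0.32 for Fgf17, -0.135 to 0.70 for Fgf15, -0.0383 to 0.38 for Fgfbp3, -0.0433 to 0.0317 for Fgfr1, -0.085 to 0.085 for Fgfr2 and -0.25 to 0.0133 for Fgfr3. The cause of these changes was not tested. The number of arrays limits every value. In the Nf2 experiment Fgf8 and Fgf18 lay below the median of their arrays, as did Fgf15 on all but control array 2.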
